A study of Mus musculus with 12 samples.

Results

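Genes of the major urinary protein (Mup) family, Mup1, Mup2, Mup3, Mup7, Mup10, Mup11, Mup17, Mup19, Mup20 and Mup21, were followed in primary mouse hepatocytes that had lost or gained the transcription factor CEBPA. They are 10 of the 55450 genes in the series, and 39 further Mup symbols, 12 with coding names and 27 named as pseudogenes, are carried in the same tables. The genes were taken by symbol and were chosen by measured values in view: their levels and their KO against WT and OE against GFP differences in these same libraries were known beforehand, so the levels and log2 fold changes of the 10 genes are given as a description, without a test. All 10 passed the filter on low counts in both comparisons.

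The study asked what role hepatocyte CEBPA has in liver fibrosis. Within its search for a mechanism, 12 poly(A) RNA libraries of primary hepatocytes were made, 3 in each of 4 groups. WT hepatocytes carried Cebpa fl/fl, and KO hepatocytes carried Cebpa{delta}Alb, the same floxed allele cut by an albumin-promoter Cre that acts in hepatocytes from before birth. GFP hepatocytes received the adenovirus Ad-GFP and OE hepatocytes received Ad-m-Cebpa, which overexpresses mouse Cebpa. The labels give no age and no duration of infection, and the study describes its mice as male. The genotype of the infected cells is not given in the labels. For its other assays the paper names WT hepatocytes as the cells given Ad-GFP or Ad-CEBPA, and chow-fed mice as the source of knockout hepatocytes. It does not say whether these libraries came from such cultures.

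Major urinary proteins are small lipocalins, barrel-shaped carriers that the liver secretes into blood and that pass into urine, where they bind and slowly release volatile pheromones. Mup20, also called darcin, is itself a male pheromone protein. Their hepatic transcription is known to need pulsatile growth hormone acting through STAT5, together with androgen, glucocorticoid and thyroid hormone, and CEBPA is a liver-enriched leucine zipper factor long linked to their promoters. TPM, a share of transcripts scaled for gene length, was used to compare genes with each other. Log2 fold changes come from edgeR on the expected counts, and counts of genes whose groups do not overlap use counts per depth-scaled library (CPM, scaled by the TMM method).

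All 10 genes lie in 1 cluster on mouse chromosome 4 (GRCm38, the build also named mm10), all on the minus strand. From the GENCODE M21 annotation, Mup7 spans chr4:60066469-60070475, Mup2 chr4:60135932-60154289, Mup1 chr4:60498012-60501960, Mup10 chr4:60578260-60582199 and Mup11 chr4:60658466-60662411. Further along lie Mup17 at chr4:61591929-61595871, Mup19 at chr4:61778324-61782269, Mup20 at chr4:62050234-62054158, Mup3 at chr4:62083476-62087342 and Mup21 at chr4:62147932-62150863. The cluster holds 22 protein-coding Mup genes over 2.19 Mb, and 21 of them are on the minus strand. The transcript used for each member had 7 exons, except 6 for Mup21, and 540 to 552 coding bases.

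The members differ greatly in how much of their sequence is their own, which bears on every value below. The same 60-base coding stretch is shown for 6 of them because it separates the distinct members from the near-identical ones. Capitals mark bases that differ from Mup7 when the coding sequences, taken from the GENCODE M21 transcripts, are aligned.
Mup7: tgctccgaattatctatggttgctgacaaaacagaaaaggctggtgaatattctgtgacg
Mup19: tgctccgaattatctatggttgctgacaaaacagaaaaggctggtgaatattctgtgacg
Mup11: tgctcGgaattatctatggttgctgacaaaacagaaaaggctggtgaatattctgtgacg
Mup20: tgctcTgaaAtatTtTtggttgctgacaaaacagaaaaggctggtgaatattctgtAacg
Mup3: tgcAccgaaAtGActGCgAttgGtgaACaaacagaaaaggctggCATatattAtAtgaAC
Mup21: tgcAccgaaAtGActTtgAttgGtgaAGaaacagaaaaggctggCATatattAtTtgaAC
Over this stretch Mup10 and Mup17 have the letters of Mup7, and Mup1 and Mup2 those of Mup11. Mup20 differs from Mup7 at 5 of the 60 bases, Mup21 at 16 and Mup3 at 17.

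Over the whole coding sequence, Mup1, Mup2, Mup7, Mup10, Mup11, Mup17 and Mup19 differed from one another at only 3 to 9 positions, an identity of 98.3% to 99.4%. They are called the 7 near-identical members here. Mup20 was 91.3% identical to its closest relative in the cluster, Mup11, while Mup3 and Mup21 were 94.8% identical to each other. The share of a transcript's 100-base windows found in no other annotated gene was 97.1% for Mup3, 95.5% for Mup21 and 61.2% for Mup20. Among the near-identical members it was 40.6% for Mup17, 16.5% for Mup11, 14.6% for Mup10, 12.9% for Mup7 and 12.8% for Mup1. It was 2.66% for Mup2, and 0 of 828 windows were unique to Mup19.

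Reads from shared windows are divided by RSEM in proportion to an estimate. By 100-base windows, levels of Mup3, Mup21 and in large part Mup20 thus rest on their own sequence. Those of Mup19 and Mup2 rest almost wholly on that division. For 50-base windows the unique share was 84.4% for Mup3, 80.7% for Mup21 and 49.5% for Mup20. It was 21.9% for Mup17, 13.8% for Mup10, 11% for Mup11, 5.24% for Mup1, 3.64% for Mup7 and 0 for Mup2 and Mup19. At that length levels of Mup7 and Mup1 also rest almost wholly on the division. For this reason the 7 near-identical members are also given as a sum. Read length is not given in the sources used here, and the windows were counted on the sense strand without mismatches.

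**Figure D1:**
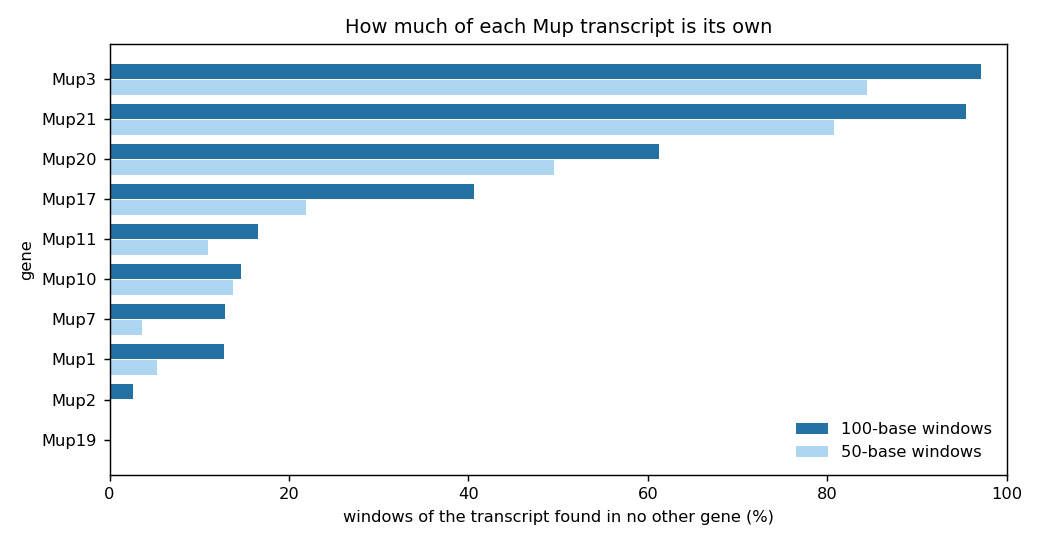
Horizontal bars give, for each of the 10 Mup genes, the percentage of 100-base (dark) and 50-base (light) windows of its transcript that occur in no other GENCODE M21 gene. Mup3 and Mup21 stand at 97.1% and 95.5% for 100-base windows, Mup20 at 61.2%, and Mup19 has no bar because none of its windows is unique.

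Cebpa itself followed the labels. Its level was 175, 123 and 165 TPM in WT, falling to 0.54, 0.14 and 0.09 TPM with the deletion (log2 fold change -9.23 ± 0.51, adjusted p = 8.4e-04 by edgeR). It was at 29.3, 31.3 and 33.7 TPM in GFP against 9924, 10238 and 10733 TPM in OE. Libraries held 20160081 to 23304230 counts. Reads of the 10 members made up 1.62% to 2.11% of these in WT libraries and 1.25% to 2.93% in KO libraries, while GFP libraries gave 0.925% to 0.948% and OE libraries 0.466% to 0.507%. The TPM of 10 hepatocyte markers such as Alb, added up, spanned 82900 to 87854 for WT libraries and 91745 to 105147 for KO libraries. For GFP libraries the span was 19591 to 20184, and for OE libraries 11082 to 11400, and no marker was at 0 throughout a group. Alb gave most of each sum, with means of 54555 TPM in WT, 69911 in KO, 14078 in GFP and 7532 in OE. Alb, Apob and Hnf4a had higher means in KO than in WT. The other markers had lower means there, such as Cyp2e1 at 3400 against 5327 TPM. Only Cps1 had a higher mean in OE than in GFP, 261 against 64.1 TPM. Libraries KO1 and KO2 stood apart from KO3 in inflammatory and acute phase genes: 10 such genes summed to 12777 and 17831 TPM in KO1 and KO2, to 603 TPM in KO3, and to 638, 602 and 3739 TPM in the 3 WT libraries. Fewer hepatocytes and less RNA per hepatocyte cannot be told apart in such bulk libraries.

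Mup20, the most abundant member in every library, was the 1 member with a higher level in KO. It stood at 20209, 16794 and 14398 TPM in WT and at 22432, 35952 and 47354 TPM in KO. The lowest KO library was above the highest WT library, and KO3 was the highest of all 12 libraries. The log2 fold change was 1.08 ± 0.28 (SE), a fold of 2.11.

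Mup3, next in abundance in WT, was lower in every KO library. Its level was 11742, 13190 and 11060 TPM in WT against 656, 541.4 and 2044 TPM in KO. The groups were far apart, and KO3 kept the most. The log2 fold change was -3.45 ± 0.51, or 10.9-fold lower, and without KO replicate 3 it was -4.27. Mup3 and Mup20 lie next to each other among the 10 members.

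Mup7 had the largest fitted difference of the 10 members with all 6 libraries. It was at 3087, 3364 and 1974 TPM in WT and at 2.51, 31.02 and 22.2 TPM in KO, so no KO library reached a level near those of WT. The log2 fold change was -7.36 ± 0.83. Here KO2, not KO3, held the highest KO level. Few windows of Mup7 are its own (12.9% at 100 bases and 3.64% at 50), so its level rests largely on divided reads.

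Mup19 was at 283, 127 and 103 TPM in WT, listed at 0 in KO1 and KO2, and at 5.44 TPM in KO3. In expected counts this was 2888, 1266 and 927 in WT against 0, 0 and 52.2 in KO. The log2 fold change was -6.60 ± 1.08, and its size rests on KO3, since both other KO libraries are at 0. With no 50-base or 100-base window of its own in the transcript used, Mup19 has only reads of those lengths that relatives could claim. At those lengths its level cannot be read apart from theirs, and longer or paired reads were not examined.

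Mup11, which followed Mup3 in WT, was at 2256, 3606 and 3075 TPM in WT and at 278, 611 and 1957 TPM in KO. The groups did not overlap, but KO3 came close to WT, and the log2 fold change of -1.68 ± 0.56 became -2.52 without KO replicate 3. Mup1 was also highest of the KO libraries in KO3, with 438, 397 and 229 TPM in WT and 15.5, 18.6 and 136 TPM in KO. Its log2 fold change was -2.67 ± 0.85, and -4.42 without KO replicate 3.

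The remaining near-identical members were low. Mup2 was at 82.0, 96.8 and 59.97 TPM in WT and at 5.08, 9.19 and 51.0 TPM in KO, with a log2 fold change of -1.90 ± 0.83 that was -3.75 without KO replicate 3. Mup17 was at 17.4, 24.9 and 16.3 TPM in WT and at 1.13, 15.1 and 11.4 TPM in KO, with a log2 fold change of -1.05 ± 0.69. Mup10 was at 81.4, 112 and 102 TPM in WT and at 22.2, 57.0 and 93.4 TPM in KO, so KO3 lay inside the WT range, and the log2 fold change was -0.75 ± 0.44.

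Mup21, the distinct relative of Mup3, did not separate the genotypes. It was at 300, 620 and 662 TPM in WT and at 358, 322 and 622 TPM in KO, with every KO library inside the WT range, and the log2 fold change was -0.25 ± 0.35. It was the only member for which the standard error exceeded the fitted difference in KO against WT. Mup3 and Mup21, with the closest sequences among the 3 distinct members, thus had log2 fold changes of -3.45 and -0.25.

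**Figure D2:**
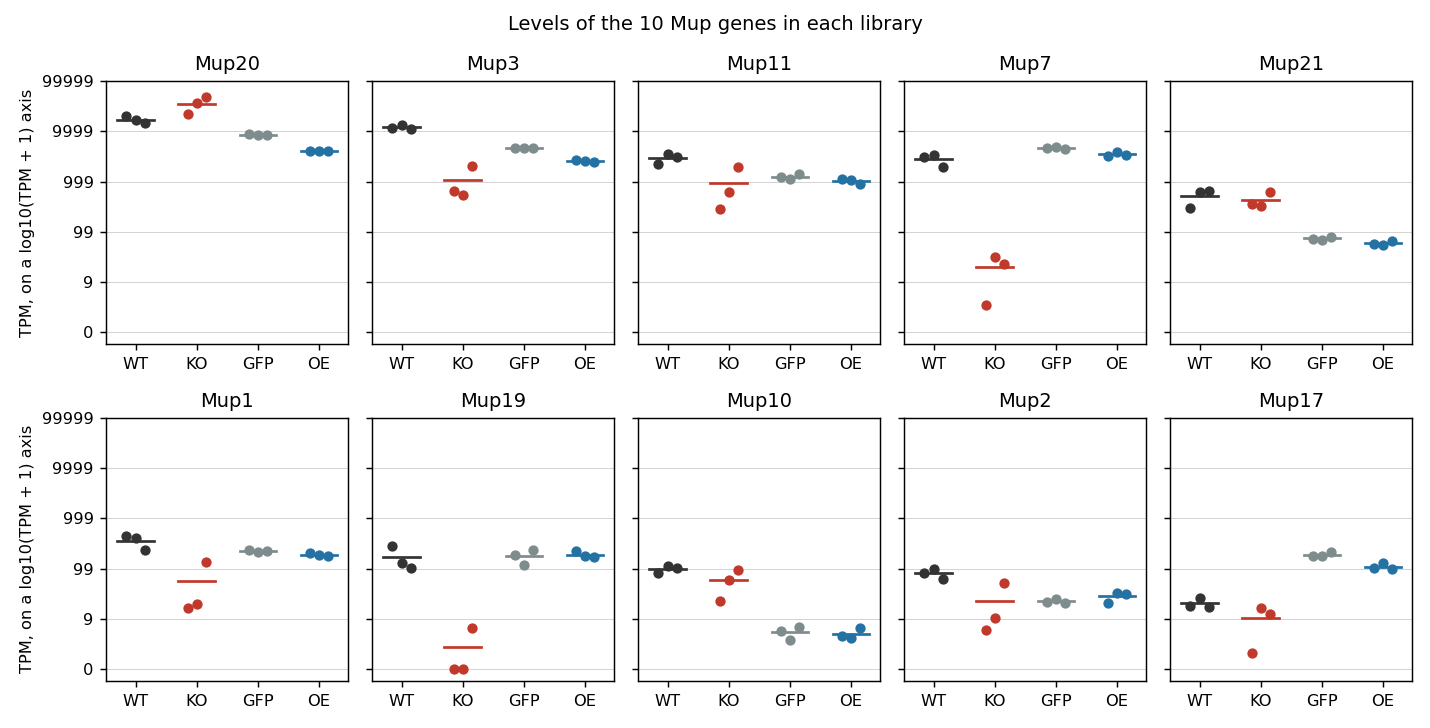
Each panel shows 1 Mup gene, with 1 point per library, a bar at the group mean and TPM on a log10(TPM + 1) axis whose ticks give TPM. KO points lie above WT for Mup20 and far below WT for Mup7, Mup19 and Mup3, overlap WT for Mup21 and Mup10, and OE points lie below GFP for Mup20 and Mup3.

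Of the 10 members, 3 were called lower in KO at an adjusted p under 0.05 (Mup7, Mup19 and Mup3), against 1.02% of all 11846 genes tested. None was called higher, against 0.692% of all genes. At an unadjusted p under 0.05 by edgeR, 5 members were lower and 1 higher, while 1644 of all 11846 genes were under it in either direction. DESeq2 called 2 members lower and 1 higher, and 631 genes in either direction. The groups did not overlap for 7 members that were lower, against 10.4% of all genes, and for 1 that was higher, against 9.66%. Since this contrast was known when the genes were chosen, nothing is read from these counts. The median log2 fold change was -1.79 over the 10 members and 0.01 over all genes. The number called lower rested on single libraries: it was 0 without WT replicate 1, 6 without KO replicate 3, and 1 without any 1 of WT2, WT3, KO1 and KO2.

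The total hid these opposite differences. The 10 members summed to 38497, 38332 and 31680 TPM in WT and to 23770, 37558 and 52296 TPM in KO, a range that spans that of WT on both sides. The mean was 36170 ± 3889 TPM (SD, n = 3) in WT and 37875 ± 14266 TPM in KO. With every Mup symbol summed as 1 gene in edgeR, the log2 fold change was 0.04 ± 0.29.

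Without Mup20 the other 9 members summed to 18288, 21537 and 17282 TPM in WT and to 1338, 1606 and 4942 TPM in KO, 7.24-fold lower by the group means and 12.9-fold lower without KO replicate 3. The share of Mup20 in the sum of the 10 members was 52.5%, 43.8% and 45.4% in WT and 94.4%, 95.7% and 90.6% in KO. The near-identical members, which avoid the question of how RSEM divided reads among them, summed to 6245, 7727 and 5560 TPM in WT and to 325, 742 and 2276 TPM in KO. That sum was 5.84-fold lower by the means, and 12.2-fold lower without KO replicate 3. It still depends on how reads were divided with relatives outside the 10 members, which include the closest coding sequence to each of the 7.

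Widening the sum to all 16 coding genes of the cluster with at least 98% identity to Mup7 narrowed the difference. It then stood at 11717, 16124 and 12007 TPM in WT and 1788, 4504 and 9883 TPM in KO, 2.46-fold lower by the means and 4.22-fold lower without KO replicate 3, with KO3 not far under the lowest WT library. KO3 held the highest KO level for 8 of the 10 members and for this sum. Its Cebpa level of 0.09 TPM was the lowest of the 3 KO libraries, and its inflammatory genes were at the level of WT1 and WT2. Whether the inflammatory genes have a part in the Mup levels of KO1 and KO2 was not tested.

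**Figure D3:**
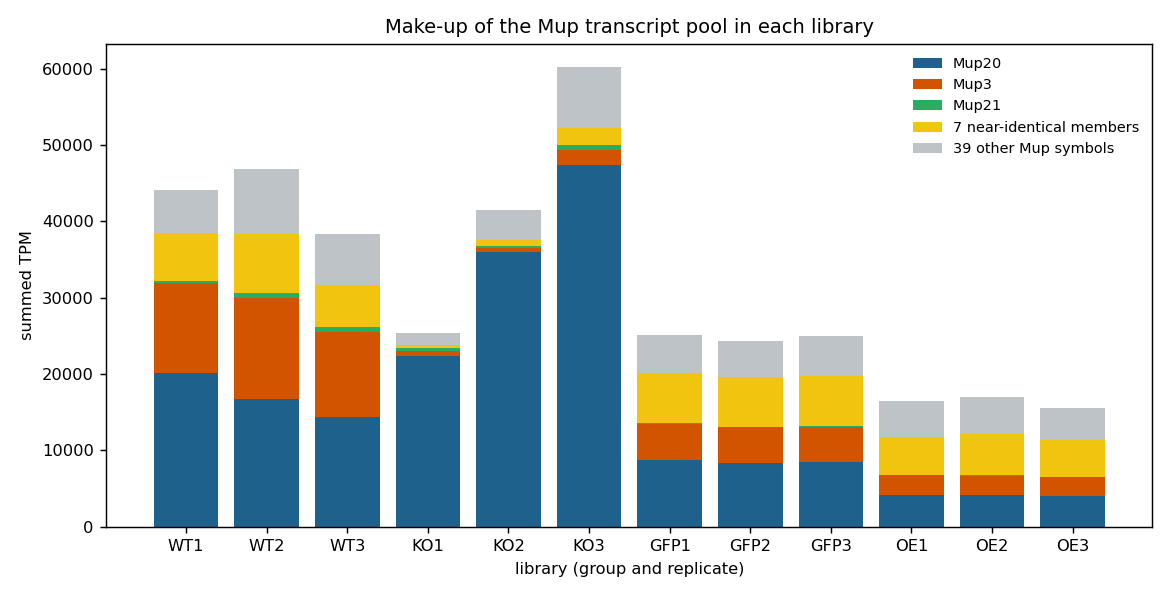
Stacked bars give the summed TPM on the y axis, split into Mup20, Mup3, Mup21, the 7 near-identical members and the 39 other Mup symbols in each of the 12 libraries. In the 3 KO bars Mup20 fills most of the height, and the total ranges from 25435 TPM in KO1 to 60231 TPM in KO3, while the GFP and OE bars are even within each group.

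Relatives outside the 10 members differed among themselves in KO. Mup22, which shares 92.4% of its 100-base windows with Mup10 and has none of its own, was at 4003, 5620 and 4813 TPM in WT and at 1066, 2099 and 4232 TPM in KO. Mup15 was at 28.6, 14.1 and 6.74 TPM in WT and listed at 0 in all 3 KO libraries, again with few windows of its own (2.66%). Mup12 was at 53.2 to 93.2 TPM in WT and 6.08 to 29.6 TPM in KO. Ranges of WT and KO overlapped for Mup14, Mup9, Mup18, Mup16, Mup13, Mup8 and Mup-ps19. Mup-ps19 shares 38.8% of the 100-base windows of Mup20, and it went from 148 to 245 TPM in WT to 199 to 324 TPM in KO, with a log2 fold change of 0.45 ± 0.22, beside the higher Mup20.

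With Cebpa overexpressed, Mup20 was lower than in its control. It was at 8790, 8401 and 8432 TPM in GFP and at 4149, 4138 and 3987 TPM in OE. The libraries of each group lay close together and the groups did not overlap. The log2 fold change was -1.38 ± 0.04, 2.61-fold lower, so Mup20 was lower in OE and higher in KO, each relative to its own control.

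Mup3 was at 4725, 4657 and 4658 TPM in GFP and at 2642, 2555 and 2503 TPM in OE, with a log2 fold change of -1.19 ± 0.04. Mup7 was at 4647, 4862 and 4515 TPM in GFP and at 3267, 3819 and 3381 TPM in OE, with a log2 fold change of -0.73 ± 0.06. Both were lower in each OE library than in any GFP library. Mup3 and Mup7 were therefore lower in KO and also lower in OE.

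Mup17, after Mup20 and Mup3 the member with the largest fitted difference, was at 180, 173 and 214 TPM in GFP and 99.6, 125 and 95.9 TPM in OE, a log2 fold change of -1.14 ± 0.09. Mup11 had 1241, 1117 and 1386 TPM in GFP and 1130, 1089 and 895 TPM in OE, with a log2 fold change of -0.59 ± 0.06. Mup1 had 233, 211 and 228 TPM in GFP and 204, 183 and 177 TPM in OE, with -0.62 ± 0.06. Mup21 had 72.3, 67.4 and 79.6 TPM in GFP and 55.6, 54.7 and 65.8 TPM in OE, with -0.64 ± 0.08. Mup17, Mup1 and Mup21 did not overlap between the groups on either scale. Mup11 did not overlap in CPM, while in TPM the highest OE library passed the lowest GFP library.

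Mup19, Mup2 and Mup10 overlapped. Mup19 was at 186, 118 and 235 TPM in GFP and 221, 174 and 167 TPM in OE, with a log2 fold change of -0.39 ± 0.16 on counts but 0.10 on log2(TPM + 1). Mup2 was at 20.6, 23.7 and 20.01 TPM in GFP and 19.7, 31.3 and 30.1 TPM in OE, with -0.13 ± 0.16 on counts but 0.30 on log2(TPM + 1). Mup10 lay between 2.78 and 6.04 TPM in both groups, with -0.49 ± 0.30. The direction for Mup19 and Mup2 thus depended on the scale, and that for Mup2 was also above 0 without GFP replicate 2 (0.0027) and without OE replicate 1 (0.06).

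**Figure D4:**
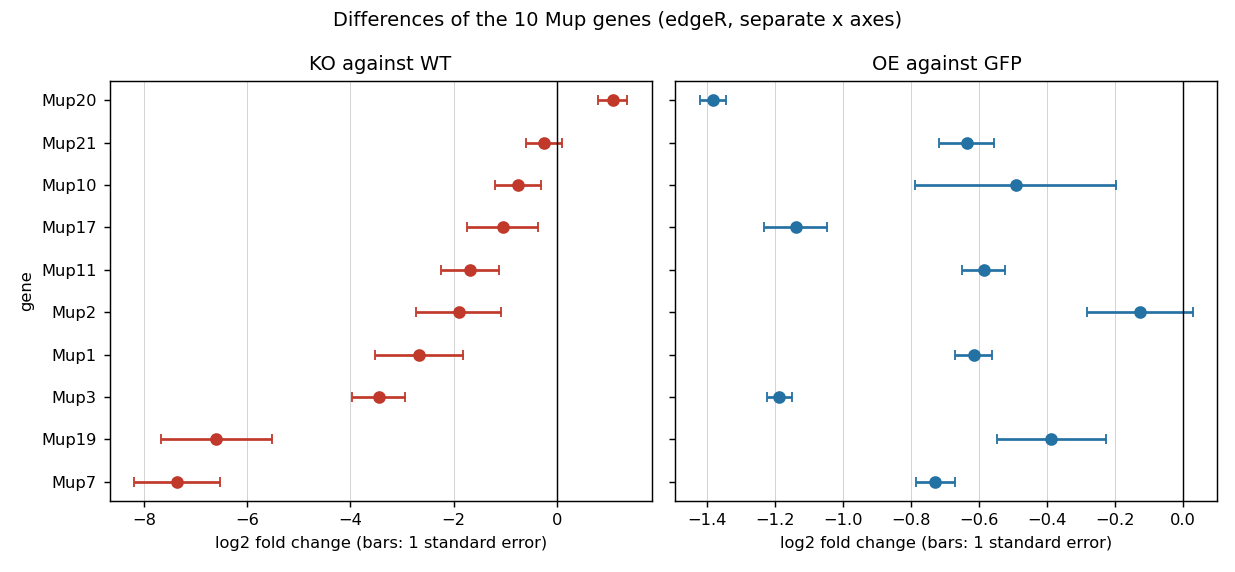
Points give the log2 fold change of each member from edgeR and bars 1 standard error, for KO against WT on the left and OE against GFP on the right, with separate x axes. Mup20 lies at 1.08 on the left and -1.38 on the right, and all 10 points on the right are below 0, down to -1.38.

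In OE against GFP, 8 of the 10 members were called lower, against 42.7% of all 14889 genes tested. None was called higher, against 43.9%. At an unadjusted p under 0.05 by edgeR, 8 members were lower and 0 higher, while 12959 of all 14889 genes were under it in either direction. DESeq2 called 7 members lower and 0 higher, and 13042 genes in either direction. The groups did not overlap for 7 members that were lower, against 42.9% of all genes, and for none that was higher, against 44.1%. As this contrast too was known when the genes were chosen, the counts are a description. The median log2 fold change was -0.63 over the members and 0.01 over all genes.

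Scaling mattered more here than in KO against WT. Relative to the main scaling, the median of all genes was higher by 0.27 on log2(TPM + 1) and by 0.14 with library totals alone, and the members moved with it. On log2(TPM + 1), where the median of all genes was 0.27, Mup20 was at -1.06, Mup3 at -0.87, Mup17 at -0.82, Mup7 at -0.42, Mup21 at -0.31, Mup11 at -0.27, Mup1 at -0.25 and Mup10 at -0.10.

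The 10 members summed to 20099, 19633 and 19774 TPM in GFP and to 11792, 12172 and 11307 TPM in OE, 1.69-fold lower by the means. The 7 near-identical members summed to 6512, 6508 and 6604 TPM in GFP and to 4946, 5425 and 4752 TPM in OE, 1.30-fold lower. All 16 near-identical coding genes were 1.19-fold lower. With every Mup symbol as 1 gene in edgeR the log2 fold change was -0.97 ± 0.04. The share of Mup20 in the 10-member sum was 43.7%, 42.8% and 42.6% in GFP and 35.2%, 34.0% and 35.3% in OE. The summed hepatocyte markers were lower in OE as well, as given above, and their part in these differences was not tested.

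Among the relatives, Mup15 was at 636, 604 and 529 TPM in GFP and 331, 330 and 317 TPM in OE, with a log2 fold change of -1.17 ± 0.06. Mup14 and Mup18 had log2 fold changes of -0.70 ± 0.07 and -1.01 ± 0.19. Mup22 was at 1983, 1875 and 2167 TPM in GFP and 1962, 2299 and 1880 TPM in OE, so the groups overlapped in TPM, and its log2 fold change was -0.29 ± 0.07 on counts and 0.02 on log2(TPM + 1). Mup12 likewise had -0.33 ± 0.11 on counts and 0.00 on log2(TPM + 1).

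The order of levels differed between the 2 experiments. In WT it was Mup20, then Mup3, then Mup11 and Mup7, whose ranges overlapped, then Mup21, Mup1, Mup19, Mup10 and Mup2, each overlapping its neighbour, and Mup17 lowest. In KO, Mup20 was followed by Mup3, Mup11 and Mup21, whose ranges overlapped in turn, with the other 6 members at 0 to 136 TPM. In GFP, Mup3 and Mup7 overlapped below Mup20, Mup11 came next, and Mup1, Mup17 and Mup19 overlapped. In OE, Mup20, Mup7 and Mup3 were apart from one another in that order.

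GFP and WT are both control groups, yet the mean of Mup20 was 8541 ± 216 TPM in GFP and 17134 ± 2920 TPM in WT. Mup21 was at 73.1 ± 6.13 TPM in GFP and 528 ± 198 TPM in WT, and Mup10 at 4.52 ± 1.64 and 98.6 ± 15.7 TPM. In the other direction Mup17 was at 189 ± 22.1 TPM in GFP and 19.6 ± 4.66 TPM in WT, Mup7 at 4675 ± 175 and 2808 ± 736 TPM, and Mup15 at 589 ± 55.2 and 16.5 ± 11.1 TPM. The sum of the near-identical members was 6542 ± 54.5 TPM in GFP and 6511 ± 1108 TPM in WT. Over all 16 near-identical coding genes the sum was 11452 ± 209 TPM in GFP and 13282.5 ± 2465 TPM in WT. Virus, culture, genotype and the experiment itself cannot be told apart between these groups.

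The promoters of the members carry a sequence that can be set beside these values. RefSeq promoters on GRCm38.p6, from 250 bases before to 50 after the annotated start, matched 8 of the 10 members, all but Mup1 and Mup20. A 62-base window was taken around a 9-letter element that begins 53 to 188 bases before the annotated start, and the element is in capitals. The 4 shown cover the 3 forms it takes, all read 5′ to 3′ on the minus strand.
Mup7: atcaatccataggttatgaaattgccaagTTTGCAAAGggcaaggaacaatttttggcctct
Mup10: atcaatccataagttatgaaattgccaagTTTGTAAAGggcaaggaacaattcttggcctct
Mup3: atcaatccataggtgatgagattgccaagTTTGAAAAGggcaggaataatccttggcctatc
Mup21: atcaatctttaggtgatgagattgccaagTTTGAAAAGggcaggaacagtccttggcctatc
These windows lie at chr4:60070496-60070557 for Mup7, chr4:60582311-60582372 for Mup10, chr4:62087418-62087479 for Mup3 and chr4:62150936-62150997 for Mup21. Mup2, Mup11, Mup17 and Mup19 read TTTGCAAAG like Mup7.

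The form TTTGCAAAG, searched on both strands and picked after the promoters had been seen, was in 5 of the 8 members and in 0.441% of all 32851 promoters. It contains TTGCAA, which was in the same 5 members and in 6.23% of promoters. TTGCAA is a shortened mirrored form of the letters C/EBP factors bind, while the spaced form TTGCNNAA was in 0 of the 8 members and in 10.8% of promoters. The spaced STAT5-type form TTCNNNGAA was also in 0 of the 8, with 8.3% of promoters holding it. The core promoter motif TATATAA was in 7 of the 8, all but Mup7, and in 3.24% of promoters. The element shown above begins 53 bases before the annotated start in Mup7 and 127 to 188 bases before it in the other 7. The Mup7 promoter used here thus reaches less far past the element, so whether Mup7 lacks TATATAA cannot be told.

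Beside these letters, the log2 fold changes in KO against WT ran from -7.36 to -1.05 for the 5 members with TTTGCAAAG, and were -3.45 for Mup3, -0.75 for Mup10 and -0.25 for Mup21. In OE against GFP they ran from -1.14 to -0.13 for the 5 and were -1.19, -0.49 and -0.64 for Mup3, Mup10 and Mup21. The ranges of members with and without the form overlap in both comparisons. The match is of letters only, and binding was not measured.

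Growth hormone signalling genes were compared next, since they are known to drive Mup transcription. In KO against WT, none of 12 tested genes of a 14-gene list was called by edgeR, 2 had an unadjusted p under 0.05 and 0 were called by DESeq2. As background for this list and those below, 1644 of all 11846 genes had an unadjusted p under 0.05 by edgeR, and DESeq2 called 631. Socs2, a feedback inhibitor of the receptor, had 5.31, 4.17 and 16.4 CPM in WT libraries against 31.9, 9.46 and 22.7 CPM in KO libraries. Cish, another such inhibitor, spanned 3.35 to 8.90 CPM in WT libraries and 5.05 to 61.4 CPM in KO libraries. Neither passed (adjusted p = 0.40 and 0.25 by edgeR), nor did the phosphatase gene Ptpn1 (0.35).

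In OE against GFP 12 of 13 tested genes were called, 5 lower and 7 higher, in a comparison where most genes were called. As background for this list and those below, 42.7% of all 14889 genes were called lower there and 43.9% higher. Igf1, the main hormone target, fell from 131 to 135 CPM in GFP to 20.8 to 21.3 CPM in OE (log2 fold change -2.66 ± 0.04, adjusted p = 1.1e-16 by edgeR). Ghr, the receptor, fell by 0.86 ± 0.04 on the log2 scale (adjusted p = 3.3e-11 by edgeR), and Socs2 rose by 1.25 ± 0.07 (adjusted p = 1.65e-10 by edgeR). The list median was 0.32 beside 0.01 over all genes.

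Other male-biased liver genes gave a mixed picture. In KO against WT, 1 of 16 tested was called lower and none higher by edgeR, 9 had an unadjusted p under 0.05 and 9 were called by DESeq2. Susd4, a complement regulator, fell from 5.76 to 8.24 CPM to 0.08 to 0.19 CPM (log2 fold change -5.73 ± 0.33, adjusted p = 8.4e-04 by edgeR). Elovl3, a fatty acid elongase, had 446, 413 and 352 CPM in WT libraries against 21.6, 8.84 and 69.5 CPM in KO libraries (adjusted p = 0.065 by edgeR), with KO3 again the highest of KO. Cyp4a12b, a fatty acid hydroxylase, spanned 76.1 to 127 CPM in WT libraries and 41.0 to 54.6 CPM in KO libraries (adjusted p = 0.066 by edgeR).

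Of the 16 male-biased genes in OE against GFP, 9 fell and 7 rose, beside 42.7% and 43.9% of all genes. Elovl3 rose from 0.14 to 0.45 CPM to 114 to 121 CPM (log2 fold change 8.77 ± 0.11, adjusted p = 4.6e-17 by edgeR), while Selenbp2 (-4.04 ± 0.07) and the glutathione transferase gene Gstp1 (-2.14 ± 0.04) fell, with adjusted p of 6.7e-16 and 7.8e-16 by edgeR. Elovl3 was thus lower in KO and higher in OE in its levels, and Mup3 and Mup7 were lower in both. The list median was -0.49 in OE against GFP and -0.27 in KO against WT, beside 0.01 over all genes in each.

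Female-biased genes were mostly too low to test, with 6 of 23 tested in KO against WT and 8 in OE against GFP. Cyp2a4, which has a near-identical relative in Cyp2a5, fell in KO from 11.3 to 76.3 CPM to 0.24 to 0.57 CPM (log2 fold change -6.62 ± 0.86, adjusted p = 0.018 by edgeR). Fmo2, a flavin monooxygenase, and Acot3, an acyl-CoA thioesterase, were not called in KO (adjusted p = 0.68 and 0.72 by edgeR). In OE, 5 rose and 3 fell, among them Acot3, from 0.15 to 0.26 CPM to 759 to 823 CPM, Fmo2 (log2 fold change 2.72 ± 0.07) and Cyp39a1, an oxysterol hydroxylase (-1.49 ± 0.04), with adjusted p of 5.1e-19, 4.0e-14 and 2.6e-13 by edgeR.

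Of 14 hormone receptors and transcription factors linked to Mup genes, only the deleted Cebpa was called in KO by edgeR. An unadjusted p under 0.05 by edgeR was reached by 3, and 2 were called by DESeq2. Zhx2, a zinc finger and homeobox factor, spanned 22.1 to 23.2 CPM in WT libraries and 24.1 to 32.4 CPM in KO libraries (adjusted p = 0.35 by edgeR). In OE, 6 fell and 8 rose, and those that rose include Cebpa, which the virus itself carries. Hnf4a, a hepatocyte nuclear receptor, fell from 447 to 450 CPM to 88.0 to 97.0 CPM (log2 fold change -2.28 ± 0.04, adjusted p = 2.9e-16 by edgeR) and Nr3c1, the glucocorticoid receptor, rose by 1.29 ± 0.04 (adjusted p = 2.6e-13).

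The other lipocalins were compared as relatives of the Mup genes outside the cluster. None of 9 tested was called in KO by edgeR, 1 had an unadjusted p under 0.05 and 1 was called by DESeq2. Orm1, an acute phase protein, had 214, 394 and 519 CPM in WT libraries against 71.6, 34.1 and 3.65 CPM in KO libraries (adjusted p = 0.16 by edgeR), with KO3 the lowest. Rbp4, the retinol carrier, spanned 2145 to 2392 CPM in WT libraries and 1758 to 1978 CPM in KO libraries, and Ambp 1660 to 2260 CPM against 2252 to 2636 CPM (adjusted p = 0.40 and 0.43 by edgeR). With overexpression 5 of 8 tested fell and 3 rose, with a list median of -0.76 beside 0.01 over all genes. Ambp (log2 fold change -1.55 ± 0.03) and Apom (-1.95 ± 0.05) fell and Orm1 rose (1.12 ± 0.03), with adjusted p of 8.6e-15, 2.3e-14 and 3.2e-13 by edgeR.

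None of the 10 inflammatory and acute phase genes was called in KO by edgeR, while 7 had an unadjusted p under 0.05 and 3 were called by DESeq2, and the median log2 fold change was 3.01. Icam1, an adhesion molecule, had 6.69, 6.02 and 21.3 CPM in WT libraries against 120, 264 and 17.4 CPM in KO libraries. For Tlr2, a pattern receptor, these were 0.23 to 2.65 CPM and 39.5, 145 and 0.94 CPM, and for Cxcl2, a chemokine, 0.21 to 0.41 CPM and 3.56, 6.22 and 0.45 CPM, with adjusted p of 0.16, 0.18 and 0.14 by edgeR. KO3 was thus near WT for all 3 genes. In OE, 7 fell and 3 rose, with the metallothionein genes Mt2 at -2.32 ± 0.03 and Mt1 at -2.51 ± 0.04, and Icam1 at -1.09 ± 0.03 (adjusted p = 1.2e-16, 2.9e-16 and 5.1e-13 by edgeR).

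Markers of other cell types were low where WT and KO were concerned. The 7 macrophage markers added up to 2.26 to 13.4 TPM in WT libraries and 6.68 to 22.4 TPM in KO libraries. The 6 endothelial markers added up to 5.01 to 9 TPM in WT libraries and 5.94 to 14.4 TPM in KO libraries. The 6 stellate markers were higher in every KO library, at 5.30 to 8.35 TPM against 2.10 to 4.63 TPM, as were the 5 bile duct markers, at 9.25 to 18.2 TPM against 2.34 to 3.89 TPM, mostly from Sox9 in both groups. In GFP and OE the macrophage sum was 173 to 206 TPM, nearly all from Cd68, with Adgre1, Clec4f and Marco at 0 in all 3 GFP libraries. The bile duct sum was 154 to 186 TPM in GFP and 13.4 to 15.96 TPM in OE. Nearly all of the GFP level came from Cldn4 (145 to 174 TPM, against 0.85 to 1.07 TPM in OE). By group means, Sox9 (4.41 to 7.29 TPM) and Epcam (1.51 to 5.01 TPM) were higher in OE than in GFP. Krt19 (3.72 to 0.90 TPM) and Krt7 (0.40 to 0.14 TPM) were lower. The stellate sum was 2.58 to 3.66 TPM in GFP and 17.0 to 18.2 TPM in OE. Nearly all of the OE level came from Dcn and Reln (means of 8.24 and 8.98 TPM), while Lrat, Des, Colec11 and Pdgfrb had OE means of 0.02 to 0.17 TPM. The part of any of these markers in the Mup levels was not tested.

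The genes whose levels were most like the sum of the 10 members were Ubxn1, Haus1, Cox7c, Gemin7 and Mov10, picked from 11595 genes by the smaller of 2 Pearson correlations of log2(TPM + 1), 1 over the 6 WT and KO libraries and 1 over the 6 GFP and OE libraries. For Ubxn1 these were 0.98 and 0.99, and for Mov10, the last of the 5, 0.96 and 0.97. Cox7c, a subunit of cytochrome oxidase, was at 343, 428 and 475 TPM in KO1, KO2 and KO3 and at 373 to 432 TPM in WT. The KO order of these genes is that of Mup20, which makes up most of the sum in KO. These likenesses are a description over few libraries that share their depth and group structure.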

How the data were processed

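RNA of 12 libraries was analysed, 3 per group, grouped by the labels. Per the labels, the authors extracted poly(A) RNA with a column kit, made stranded libraries and used Trimmomatic 0.36, STAR 2.5.1, RSEM 1.2.22, Picard 1.84 and DESeq2 with build mm10, with no role stated for each. The deposited tables give RSEM expected counts per gene, not scaled to depth, in which a read that fits several genes is shared among them by estimate. The deposited TPM values are scaled for effective length within each library. The labels number biological replicates but do not say whether mice or cultures were separate, so the p-values may measure only the spread between preparations.

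Expected counts were rounded, filtered with filterByExpr (minimum count 10, minimum total 15) and TMM-scaled, and each comparison was fitted on its own 6 libraries with the quasi-likelihood test of edgeR 4.0.16 in R 4.3.3, adjusted by Benjamini-Hochberg over all genes and called under 0.05. The biological coefficient of variation was 20.4% in WT and KO and 4.04% in GFP and OE. The test was checked on simulated data. DESeq2 1.42.0, limma 3.58.1 on log2(TPM + 1) and log2(TPM + 0.1), other scalings and filters, and leaving out each library were the alternatives. Members, lists and tests were chosen with earlier results of these data known. Named were the 10 members, other Mup symbols with a mean of at least 1 TPM in a group, Cebpa, the 3 genes of lowest p in each list and comparison, and the 5 genes most like the member sum. Of these, 1 gene is not reported here. Coding sequences were aligned with Biopython 1.88, using for each gene the transcript of most typical coding length, and the limit of 98% identity was set after the alignments were seen.

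Replicate numbers were not taken to pair the samples, as same-numbered libraries did not deviate together. With so few libraries this cannot show whether the preparations were made in pairs.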

Additional observations from a re-analysis of the deposited data

How the results depend on the processing

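The number of genes called in KO against WT was 203, and it was 631 with DESeq2, 324 with no filter, 91 with the stricter filter, 112 and 103 with limma on log2(TPM + 1) and log2(TPM + 0.1), 1205 with all 12 libraries and 42 to 396 when 1 library was left out. Members called lower were 3, then 5 with all 12 libraries and 0 to 6 with 1 library left out, and members called higher were 0, then 1 with DESeq2 and 1 with all 12 libraries. Genes of the related lists called in KO against WT were 3, among them the deleted Cebpa. They were 17 with DESeq2, 8 with no filter, 20 with all 12 libraries and 2 to 17 with 1 library left out. In OE against GFP, 12893 genes, 8 members lower and 67 list genes, among them Cebpa, were called. With all 12 libraries 3 members and 44 list genes were called there.

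The family sum in KO against WT, 0.04, was -2.01 without Mup20, an alternative chosen after seeing the data, and -0.26 to 0.30 with 1 library left out. In OE against GFP, -0.97 became -0.83 with library totals, -0.60 with either limma fit, -1.08 over the 10 members, -0.75 as their TPM ratio and -0.78 without Mup20. Signs turned on log2(TPM + 1) and log2(TPM + 0.1) in OE against GFP for Mup19 (0.10 and 0.11), Mup22 (0.0245 and 0.0245) and Mup12 (0.0049 and 0.0053). Mup2, -0.13 and not called, was 0.30 and 0.31 there, 0.01 with library totals, 0.0027 without GFP replicate 2 and 0.06 without OE replicate 1. Fmo2 in KO against WT, 1.32, was -0.12 with limma on log2(TPM + 0.1), -0.14 with the replicate block and -2.15 to 1.88 with 1 library left out, the lowest without KO replicate 1. Without KO replicate 3 no fold is given for Mup19, since the other 2 KO libraries are at 0. Of the other values, 1060 were marked as unchanged, 25 passed the threshold anew and 5 no longer did. For Mup genes that mark meant a shift within the replicate spread, so direction or call could still differ. In KO against WT, Mup1 was so marked but was called lower with all 12 libraries. Mup14 was so marked but went from 0.05 to -0.98 without KO replicate 3. Larger shifts included those of Mup1 and Mup2 without KO replicate 3, given above. The causes of these shifts were not tested.

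The labels number replicates alike in all groups. The correlation of deviations between same-numbered libraries was 0.031, -0.055 and -0.42 in KO and WT and -0.038, 0.043 and -0.073 in GFP and OE, so the numbers were not taken to pair samples. With the replicate block, 87 genes and 1 member were called in KO against WT, and the family sum was -0.03 there and -0.97 in OE against GFP.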
